A study of Mus musculus with 6 samples.

Results

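The genes described here are the integrin subunits and adhesion molecules that B cells use to hold on to other cells and to matrix. They were found by symbol, and all 9 of them (Itgal, Itgam, Itgax, Itga4, Itgb1, Itgb2, Itgb7, Icam1 and Cd44) were among the 39017 genes of the count table. RNA was measured in induced germinal center B cells (iGBs), which are splenic B cells expanded on 40LB cells, a fibroblast feeder line that presents CD40L and BAFF, in the presence of IL-4. The 3 Control mice carried Cγ1-cre and the 3 Prmt1-null mice were Prmt1 F/F Cγ1-cre, all on C57BL6/J, with 2 females and 1 male per genotype and 1 library per mouse. Cells of both groups received CD40L, BAFF and IL-4 (5 ng/ml per the labels, while the study's methods give a lower concentration), were harvested at day 3.5 and were separated from the feeders before extraction. Cγ1-cre is expressed from an immunoglobulin constant region locus and is switched on by activation, so it was present in both groups, and Prmt1 could be deleted only in cells that had turned it on.

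An integrin is a pair of 1 α and 1 β chain, and it binds well only after signals from inside the cell change its shape. In lymphocytes, αL pairs with β2 to form LFA-1, which binds ICAM-1, and α4 pairs with β1 or β7 to bind VCAM-1 or MAdCAM-1. αM and αX also pair with β2 and are best known from myeloid and dendritic cells, and CD44 is a receptor for hyaluronan that marks activated lymphocytes. RNA levels report neither surface protein nor the active shape.

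Total counts were 45343250 to 62774232 per library. Prmt1, which encodes the arginine methyltransferase deleted here, had 3964, 3924 and 4838 normalised counts (raw counts scaled to a common library size) in Control and 1745, 1478 and 1477 in Prmt1-null iGBs, that is 36.9% of the Control mean (quasi-likelihood test of edgeR, p adjusted by Benjamini-Hochberg over all genes tested = 1.1e-05). The 8 B cell markers summed to 356312 to 376030 normalised counts in Control and 374291 to 394134 in Prmt1-null iGBs. The T cell markers summed to 1344 to 1572 and 1426 to 1664, of which most was Lck, and the NK cell markers to 885.0 to 1174 and 991.0 to 1267, of which most was Prf1. The dendritic cell markers, of which most was Flt3, summed to 5922 to 5991 in Control and to the lower range of 5622 to 5906 in Prmt1-null iGBs, with 0 of the 3 tested called. Cd3e, a defining T cell marker, stayed at or below 66 raw counts, and Clec9a, of the dendritic list, and Lum, of the fibroblast list, were at 0 in all 6 libraries. Feeder fibroblast markers were low but present, and their sum was 1244 to 1455 normalised counts in Control and 1464 to 1831 in Prmt1-null iGBs, with 0 of the 8 tested markers called. The largest part of this sum was Thy1, with a log2 fold change of 0.02. The plasma cell markers summed to 60591 to 67071 in Control and 71157 to 76087 in Prmt1-null iGBs, with Txndc5 and Derl3, which act in the endoplasmic reticulum, called higher among the 7 tested. Irf4 and Xbp1, the most abundant of this list, were not called (log2 fold change 0.16 and 0.29), and Jchain alone was lower (−0.09). The part of the difference in the plasma cell sum in the values below was not tested.

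None of the 9 adhesion genes changed between Control and Prmt1-null iGBs by the threshold used here, an adjusted p under 0.05 with a mean normalised count over 100. Of all 18268 genes tested, 1.18% passed, 0.58% higher and 0.602% lower in Prmt1-null iGBs. DESeq2 and limma-voom also called 0 of the 9. At an unadjusted p under 0.05 there were 2 of 9 by edgeR, 2 by DESeq2 and 3 by limma-voom, beside 13.5% of all genes by edgeR. These were Itga4, which was lower, and Itgb2, which was higher, in the edgeR test. Groups did not overlap for 1 of the 9 genes, Itga4, against 19.9% of all genes. For the 9 together the median was 0.11 on the log2 scale, and their median absolute log2 fold change was 0.14, the same to 2 decimals as that of all tested genes. The libraries are bulk RNA, in which fewer cells of a type and less RNA per cell cannot be told apart.

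**Figure D1:**
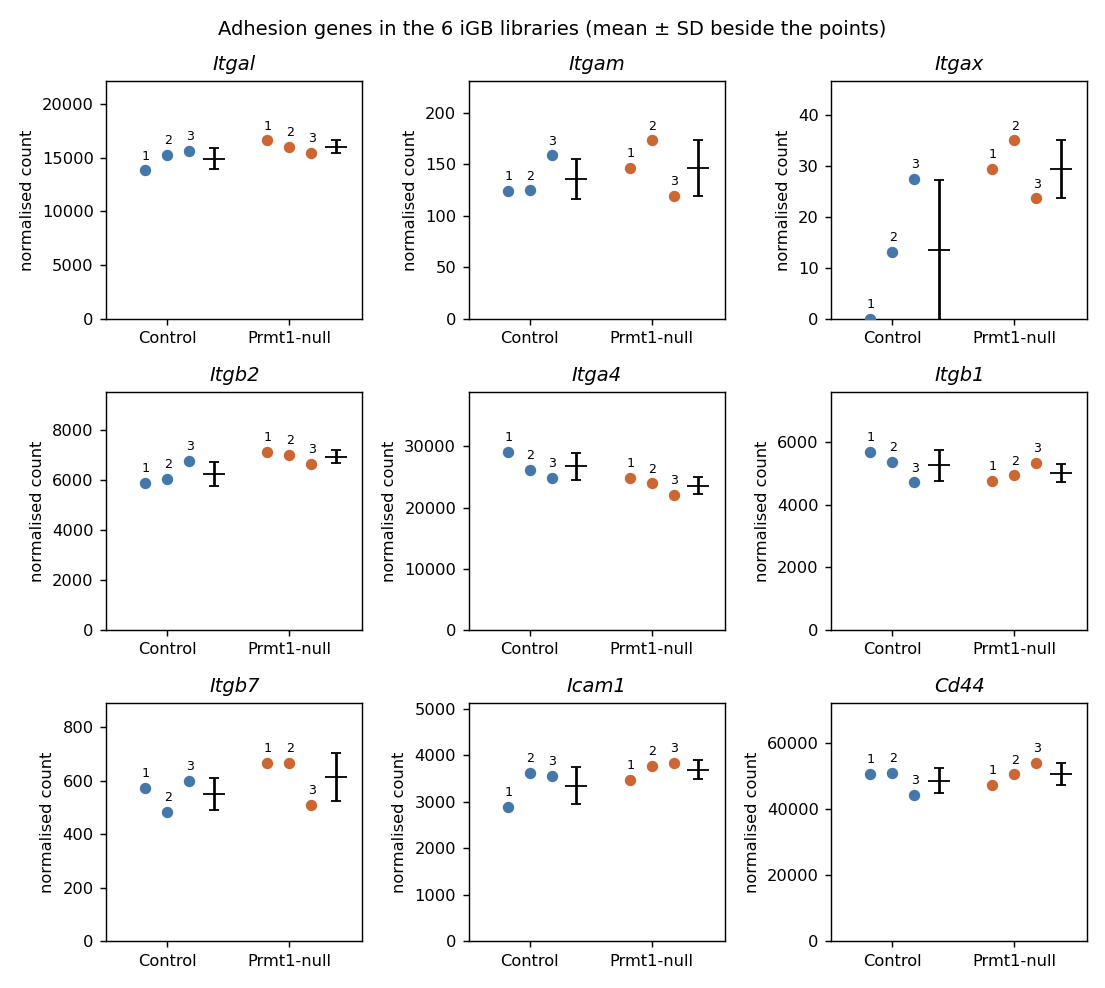
Normalised counts (y axis, linear, from 0) of the 9 adhesion genes in the 3 Control (blue) and 3 Prmt1-null (orange) libraries, numbered by replicate, with the mean and SD beside each group. Only for Itga4 do the groups not overlap, and there the lowest Control value (24897) and the highest Prmt1-null value (24792) nearly touch; for Itgax the Control bar is drawn only down to 0.

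The genes differed far more from one another than between genotypes. Per kilobase of exon, which allows levels of different genes to be set side by side, Cd44 was the most abundant at 7159 ± 562 normalised counts per kilobase in Control (SD, n = 3), above 97.1% of the genes tested. Itgal followed at 2269 ± 148, Itgb2 at 2041 ± 156, Itga4 at 1914 ± 157 and Itgb1 at 1288 ± 123. These genes thus ranked in the upper part of the B cell transcriptome, with Itgb1 above 85.1% of the genes tested. Icam1 had 768.2 ± 93.5 and Itgb7 198.9 ± 22.0, the latter near the middle of all genes (49.6% were lower). Itgam, at 27.0 ± 3.95, and Itgax, at 2.83 ± 2.87, were at the low end, above 18.7% and 3.91% of genes. The order by exon length was the same in Prmt1-null iGBs. The ranges of Itgal and Itgb2 over the 6 libraries overlapped, but Itgal was above Itgb2 within every library. Itgb2 and Itga4 also overlapped, with either one higher depending on the library, and with the length of the longest transcript in place of all exons Itga4 came before Itgb2 in Control, so their order is not resolved. No other neighbours overlapped by exon length. By the longest transcript Itgal and Itga4 overlapped too, as did Itgb1 and Icam1, with Itgb1 at 1378 and Icam1 at 1321 in Control and Icam1 the higher, at 1457 against 1313, in Prmt1-null.

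**Figure D2:**
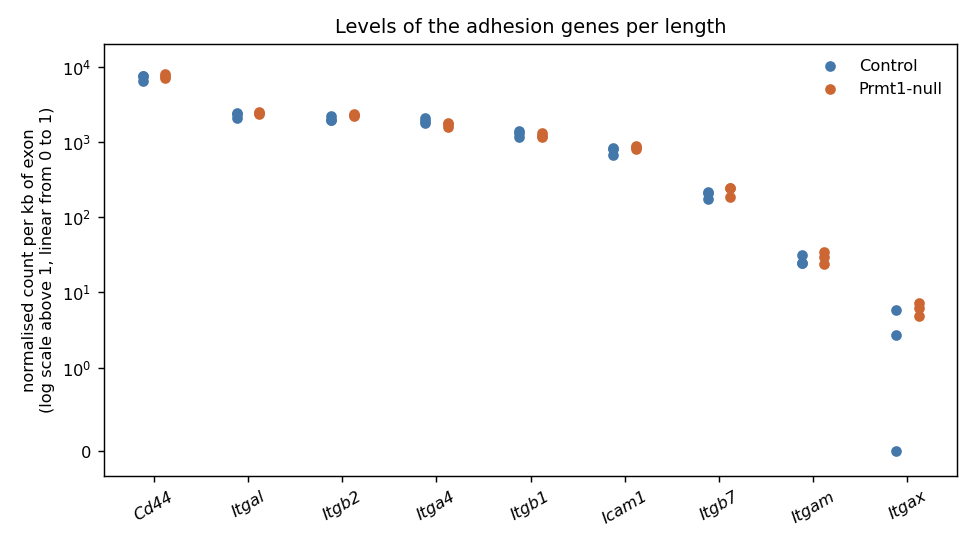
Level of each adhesion gene per kilobase of exon (normalised counts per kilobase, log scale above 1 and linear from 0 to 1) in each Control (blue) and Prmt1-null (orange) library. Cd44 lies at the top and Itgax at the bottom in both groups, with 1 Control library of Itgax at 0, and the points of the genotypes lie close together within each other gene.

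The promoters of these genes differed too, and their CpG numbers followed that order only in part. The genes of lowest level, Itgb7, Itgam and Itgax, were among those with few CpG, but so was Cd44, the highest. RefSeq promoter sequences (GRCm38.p6, 250 bases before to 50 after the start) were matched for 7 of the 9 genes, all but Itgal and Itgb2. The number of CpG dinucleotides was 27 for Itgb1, 19 for Icam1, 10 for Itga4, 6 for Cd44, 6 for Itgam, 5 for Itgax and 5 for Itgb7, against a median of 7 over 32851 promoters. The promoters of Cd44 and Itgam, the genes with the highest and next to lowest level, are shown because they held the same number of CpG, and that of Icam1 because it alone of the 7 held the TATA letters and the κB letters. Capitals mark the GC box letters GGGCGG, the TATA letters TATAAA and the κB letters GGAAATTCC, each on either strand, and the sequences run 5′ to 3′.
Cd44 promoter, chr2:102901616-102901915, minus strand: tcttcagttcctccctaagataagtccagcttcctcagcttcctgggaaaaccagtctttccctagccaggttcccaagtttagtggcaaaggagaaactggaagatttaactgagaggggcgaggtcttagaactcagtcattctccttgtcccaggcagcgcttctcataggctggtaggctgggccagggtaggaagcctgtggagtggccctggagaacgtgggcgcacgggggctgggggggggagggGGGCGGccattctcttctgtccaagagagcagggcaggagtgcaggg
Itgam promoter, chr7:128062390-128062689, plus strand: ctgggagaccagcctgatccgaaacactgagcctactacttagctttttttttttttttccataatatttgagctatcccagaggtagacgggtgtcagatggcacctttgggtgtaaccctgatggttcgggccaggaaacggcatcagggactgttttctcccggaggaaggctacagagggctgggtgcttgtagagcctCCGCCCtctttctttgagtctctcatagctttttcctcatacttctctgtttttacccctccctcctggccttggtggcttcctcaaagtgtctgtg
Icam1 promoter, chr9:21015690-21015989, plus strand: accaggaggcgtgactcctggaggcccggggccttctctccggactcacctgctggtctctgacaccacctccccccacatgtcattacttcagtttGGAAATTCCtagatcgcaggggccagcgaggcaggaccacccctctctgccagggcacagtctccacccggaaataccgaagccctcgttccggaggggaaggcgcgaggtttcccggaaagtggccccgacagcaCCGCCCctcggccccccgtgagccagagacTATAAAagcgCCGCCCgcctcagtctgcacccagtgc
GGGCGG was also in the promoters of Itga4 and Itgb1 and in 35.7% of all promoters, TATAAA was in 13.6%, and GGAAATTCC, 1 form of the sequence that NF-κB proteins bind, was in 0.317%. A match of letters is a description and not a measured binding site.

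The β2 integrins are built on Itgb2, which encodes CD18 (chromosome 10, 77530252 to 77565708, mm10, plus strand). Its normalised counts were 5880, 6032 and 6772 in Control and 7136, 7012 and 6642 in Prmt1-null iGBs. The groups overlapped only through Control 3, which exceeded Prmt1-null 3, and within each sex both Prmt1-null females lay above both Control females and the Prmt1-null male above the Control male. The male comparison has 1 library on each side, and the share of all genes separated in this way was not counted. The mean was 6228 ± 477 in Control and 6930 ± 257 in Prmt1-null, or 111% of Control (95% interval of the fold change 101% to 123%). The log2 fold change of 0.15 (SE 0.065) had an unadjusted p of 0.034 and an edgeR adjusted p of 0.31, and with sex in the model the adjusted p was 0.26.

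Itgal encodes αL, the chain that makes LFA-1 with CD18 (chromosome 7, 127296260 to 127335138, plus strand). It had 13803, 15260 and 15653 normalised counts in Control and 16598, 16010 and 15398 in Prmt1-null iGBs. The lowest value was a Control and the 2 highest were Prmt1-null, but Prmt1-null 3 fell among the Controls. Within each sex, as for Itgb2, the Prmt1-null libraries were above the Control libraries. The same held for Itgax and, downward, for Itga4, but not for Itgam, Itgb1, Itgb7, Icam1 or Cd44. The difference was 0.10 on the log2 scale (SE 0.065), or 107% of Control (95% interval 97.4% to 118%), with an edgeR adjusted p of 0.54, and it was 0.05 without Control 1.

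Itgam, which encodes αM of Mac-1 (CD11b), and Itgax, which encodes αX (CD11c), lie close together on chromosome 7, at 128062640 to 128118491 and 128129547 to 128150657 on the plus strand. Itgam had 123.9, 124.7 and 158.7 normalised counts in Control and 146.8, 173.3 and 119.1 in Prmt1-null iGBs. The lowest and the highest value were both Prmt1-null, so that the groups overlapped throughout (log2 fold change 0.11, SE 0.23, edgeR adjusted p = 0.88, 95% interval 77.0% to 151% of Control). Itgax was barely detected, with 0, 15 and 25 raw counts in Control and 29, 38 and 25 in Prmt1-null iGBs, where 3 counts were taken as the limit of detection in a library. Control 1, the library without a count, set much of the difference. The log2 fold change was 1.09 (SE 0.83, edgeR adjusted p = 0.62) with a 95% interval of 62.0% to 735% of Control, and it was 0.54 without Control 1, 2.06 without Control 3 and 2.13 with limma-voom on all 6 libraries. These data therefore bound neither a rise nor a fall of Itgax closely. In GENCODE M21 the exons of Itgam are shared on the same strand by Gm49368, for which no row was matched, so its counts are uncertain to that extent.

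Myeloid markers were present at low counts and varied between libraries. Their sum was 370.6 to 1074 normalised counts in Control, highest in Control 2, and 797.8 to 850.9 in Prmt1-null iGBs. Lyz2, S100a8, S100a9 and Mpo, all made by myeloid cells, were at 0 in Control 1, where Itgax was also at 0, whereas Control 2 had 361.7 normalised counts of S100a8. Control 1 still had 70.5 of Csf1r, and Cd3g, Cd8a and Ncr1 of the T and NK cell lists were at 0 there too. Control 2 had 15 raw counts of Itgax, fewer than Control 3 and every Prmt1-null library. Cd14, Ly6g and Fcgr1 were under 3 counts in every library. Of the 5 myeloid markers tested 1 was called, Adgre1, which encodes a macrophage surface receptor, with 300.1, 353.8 and 404.4 normalised counts in Control and 565.0, 533.7 and 657.9 in Prmt1-null iGBs (log2 fold change 0.73, edgeR adjusted p = 0.032). Every Prmt1-null library was thus above every Control library for Adgre1. Of the other tested myeloid markers, none of them called, Csf1r was also higher (log2 fold change 0.33, edgeR adjusted p = 0.68). Lyz2, S100a8 and Mpo had log2 fold changes of −0.75, −1.58 and −0.23, and the median of the 5 was −0.23. The part of other cells in the counts of Itgam and Itgax was not tested.

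Of the RNA of αL, αM and αX, nearly all was that of αL, the chain of LFA-1. Itgal made up 98.7% ± 0.217 of the summed level per kilobase of Itgal, Itgam and Itgax in Control and 98.6% ± 0.243 in Prmt1-null iGBs (SD, n = 3 each). Itgad, a further α chain that pairs with CD18, was not in this sum and had 8.60 normalised counts per kilobase in Control and 11.3 in Prmt1-null. The 3 α chains together stood at 1.13 ± 0.0536 times the level of Itgb2 in Control and 1.09 ± 0.00855 times in Prmt1-null. This ratio is a description on RNA per exon length and depends on the gene models.

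Itga4 encodes α4, the chain of VLA-4 and of the gut-homing integrin α4β7 (chromosome 2, 79255426 to 79333123, plus strand). It had 29169, 26209 and 24897 normalised counts in Control and 24792, 23954 and 22090 in Prmt1-null iGBs. All Control libraries were above all Prmt1-null libraries, although Control 3 exceeded Prmt1-null 1 by less than the SD of either group. Means were 26759 ± 2188 and 23612 ± 1383, so that Prmt1-null iGBs had 88.2% of Control (95% interval 79.2% to 98.3%). The log2 fold change was −0.18 (SE 0.073), with an unadjusted p of 0.027 and an edgeR adjusted p of 0.28. Leaving out Control 1, the highest library, gave −0.11 and an adjusted p of 0.53, and with DESeq2 on all libraries the adjusted p was 0.12. Exons of Cerkl overlap Itga4 on the opposite strand, and Cerkl had 6836 to 8987 raw counts. The library kit kept strand information per the labels, but the strand setting of the counting is not given in the sources used here, so reads of these genes may have been shared.

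The β partners of α4 did not pass the test either. Itgb1, the β1 chain of the VLA integrins (chromosome 8, 128685654 to 128733200, plus strand), had 5701, 5359 and 4711 normalised counts in Control and 4759, 4937 and 5326 in Prmt1-null iGBs. The lowest value was a Control and the groups overlapped widely (log2 fold change −0.07, SE 0.074, edgeR adjusted p = 0.75, 95% interval 85.3% to 106% of Control). It was −0.0051 without Control 1 and −0.14 without Control 3. Itgb7 (chromosome 15, 102215995 to 102231944, minus strand) had 572.3, 482.0 and 598.3 in Control and 665.2, 667.4 and 510.4 in Prmt1-null. Prmt1-null 1 and 2 were the highest libraries and Control 2 the lowest, with Prmt1-null 3 below 2 of the Controls. For Itgb7 the log2 fold change was 0.16 (SE 0.14, edgeR adjusted p = 0.68), and the 95% interval was 90.5% to 138% of Control. Leaving out 1 library gave 0.07 (without Control 2) to 0.28 (without Prmt1-null 3) for Itgb7.

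Itgb1 was the main β partner by RNA. Per kilobase, Itgb7 made up 12.9%, 11.7% and 15.8% of the sum of Itgb1 and Itgb7 in Control and 17.1%, 16.6% and 12.4% in Prmt1-null iGBs. The shares overlapped between groups. Itga4 stood at 1.30, 1.26 and 1.30 times that sum in Control and at 1.26, 1.18 and 1.06 times in Prmt1-null. Control 2 and Prmt1-null 1 had the same ratio to 2 decimals, and Prmt1-null 3 had the lowest. Both ratios combine genes described above and were not tested.

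**Figure D3:**
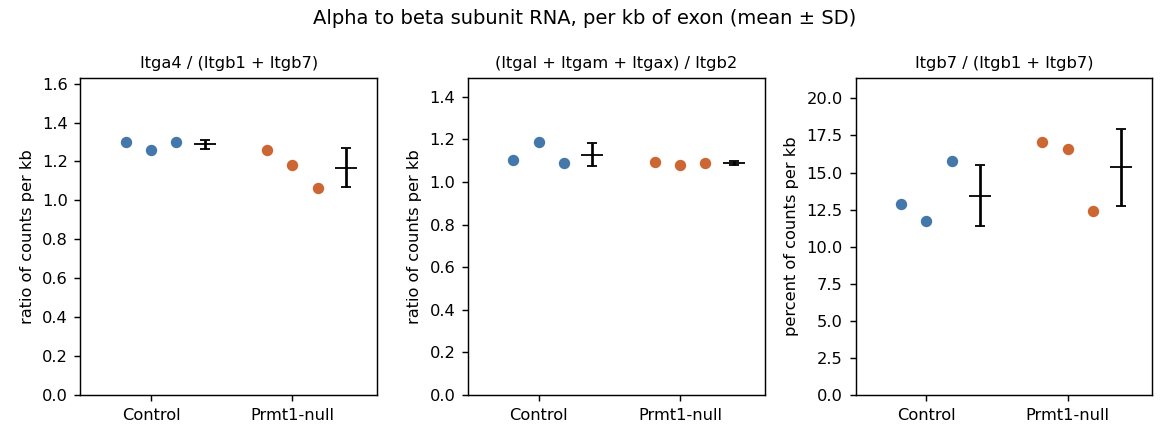
Levels per kilobase of exon of α4 over its β partners (left) and of the β2 α chains over Itgb2 (middle), as ratios, and of Itgb7 as a percent of Itgb1 plus Itgb7 (right), in the 3 Control (blue) and 3 Prmt1-null (orange) libraries, with mean and SD. Itgb7 stays between 11.7% and 17.1% in every library, and the Prmt1-null libraries spread more than the Control libraries in the left panel.

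Icam1 encodes ICAM-1, the ligand of LFA-1 and Mac-1, which B cells themselves display (chromosome 9, 21015985 to 21028817, plus strand). Its normalised counts were 2879, 3613 and 3556 in Control and 3465, 3777 and 3841 in Prmt1-null iGBs. Control 1 was well below the other 5 libraries, and Prmt1-null 1 lay below 2 of the Controls. Means were 3349 ± 408 and 3694 ± 201 (log2 fold change 0.14, SE 0.085, edgeR adjusted p = 0.51, 95% interval 97.2% to 125% of Control). Without Control 1 the log2 fold change was 0.05.

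Cd44, the hyaluronan receptor (chromosome 2, 102811141 to 102901665, minus strand), had 50604, 50809 and 44114 normalised counts in Control and 47268, 50402 and 53933 in Prmt1-null iGBs. The lowest library was a Control and the highest a Prmt1-null, with the other 4 between them. The log2 fold change was 0.06 (SE 0.073, edgeR adjusted p = 0.79), with a 95% interval of 93.4% to 116% of Control. Fibroblasts also express Cd44, Itgb1 and Icam1. The fibroblast collagen gene Col1a1, a marker of the feeder cells, had 331.7 to 396.0 normalised counts in Control and 429.6 to 546.4 in Prmt1-null iGBs (log2 fold change 0.44, edgeR adjusted p = 0.17), and the part of feeder RNA in these genes was not tested.

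**Figure D4:**
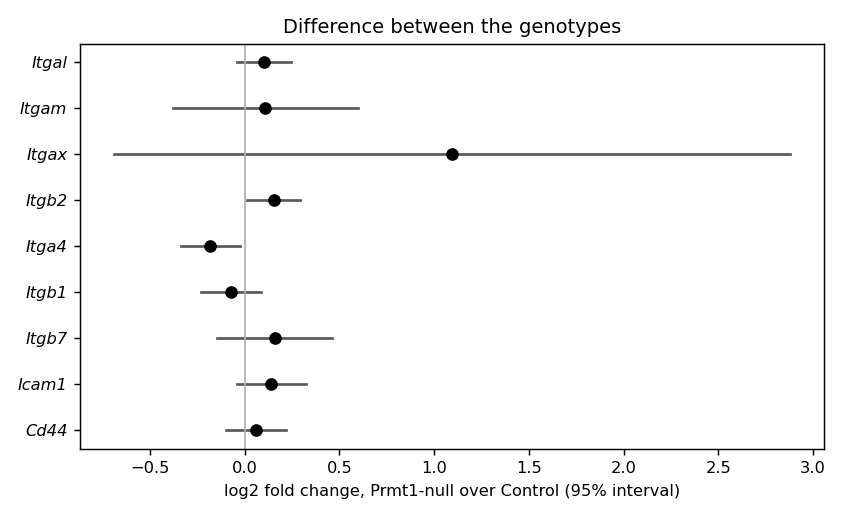
Log2 fold change (Prmt1-null minus Control, x axis) of the 9 adhesion genes with the 95% interval (bars) from the edgeR fit. The interval includes 0 for 7 of the 9 genes, lies below 0 for Itga4 and above 0 for Itgb2, and is widest for Itgax.

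Lists of other integrin subunits, integrin ligands, activation machinery, adaptors, CD44 partners and other B cell adhesion receptors held 133 genes in the table, of which 119 were tested and 1 was called, beside 1.18% of all genes. At an unadjusted p under 0.05 there were 20 (16.8%), and for 29 (24.4%) the groups did not overlap, beside 13.5% and 19.9% of all genes. The called gene was Slc3a2, which encodes the CD98 heavy chain, a partner of integrin β tails and of amino acid transporters. It had 5771, 5794 and 5657 normalised counts in Control and 6532, 7109 and 6934 in Prmt1-null iGBs. The groups did not overlap. Slc3a2 rose by 0.26 on the log2 scale (SE 0.057, edgeR adjusted p = 0.046), and the call was kept with DESeq2 (adjusted p = 0.0036), without the filter (0.010) and with DESeq2 size factors (0.047). It was lost with limma-voom (0.052), with the replicate number as a block (0.076) and with sex in the model (0.053). The call was also lost when any single library was left out, where the edgeR adjusted p of Slc3a2 was 0.062 to 0.24 and its log2 fold change 0.24 to 0.29.

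Of the 20 other integrin subunits 13 were tested and 0 called (median log2 fold change 0.06). Itgb3 and Itgav, which encode the chains of the vitronectin receptor, were the most abundant of these per kilobase. Itgb3 had 4898, 4450 and 4312 normalised counts in Control and 3508, 3604 and 4003 in Prmt1-null iGBs. Control and Prmt1-null libraries of Itgb3 were fully separated, with a log2 fold change of −0.30 (SE 0.071) and an edgeR adjusted p of 0.062. It passed with DESeq2 (adjusted p = 0.0085), with sex in the model (edgeR adjusted p = 0.028) and without Control 3 (0.034). It did not pass with limma-voom (0.069), with the replicate number as a block (0.093) or with any other single library left out (0.081 to 0.29). Itgav, its α partner, had a log2 fold change of −0.04 (SE 0.067, edgeR adjusted p = 0.86). Itgb6, named here after its values were seen, was at 0 in all 6 libraries.

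Ligands and counter-receptors of integrins had 19 tested genes, 0 called, with a median log2 fold change of −0.08. Cd47, which encodes an integrin-associated protein, was the most abundant per kilobase, followed by Icam2, and their log2 fold changes were 0.12 and −0.09 (edgeR adjusted p = 0.39 and 0.80). Icam5 had the smallest p of the list, on only 2, 14 and 12 raw counts in Control and 22, 39 and 32 in Prmt1-null iGBs (edgeR adjusted p = 0.30). Among activation genes, 23 were tested and 0 called (median 0.02). Sharpin, which encodes an inhibitor of integrin activation, had the smallest p, with 3760, 3773 and 4209 normalised counts in Control and 3154, 3272 and 3396 in Prmt1-null iGBs. Control libraries were all above the Prmt1-null ones for Sharpin, with a log2 fold change of −0.26 (SE 0.067), an edgeR adjusted p of 0.087, and 0.020 with DESeq2. Rap1b, the small GTPase that drives integrin activation in lymphocytes, and Stk4 were the most abundant per kilobase, at 0.04 and −0.07 on the log2 scale.

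All 25 adaptor and signalling genes were tested and 0 were called (median −0.01), and the abundant GTPase genes Cdc42 and Rac2, the highest per kilobase, had log2 fold changes of 0.07 and 0.12. Parva, an actin-linking adaptor gene, had the smallest p of this list on 6 to 35 raw counts (edgeR adjusted p = 0.29). Of the CD44 partners 14 were tested and 0 called (median 0.05). Cd74, the invariant chain gene, and Msn, which encodes moesin, a link between CD44 and actin, were the most abundant per kilobase, at 0.09 and 0.03. Hmmr, another hyaluronan receptor gene that is also cell cycle linked, had the smallest p, with a log2 fold change of −0.22 (SE 0.077, edgeR adjusted p = 0.21). For Hmmr it was −0.13 without Control 1 (0.46) and −0.29 without Control 3 (0.048). The list of other B cell adhesion receptors, which holds Slc3a2, had 25 tested genes with a median of 0.08. Its most abundant genes per kilobase were Cd53 at 0.04 and Cd24a at −0.20 (edgeR adjusted p = 0.79 and 0.17), and Cd24a passed with DESeq2 (adjusted p = 0.028).

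**Figure D5:**
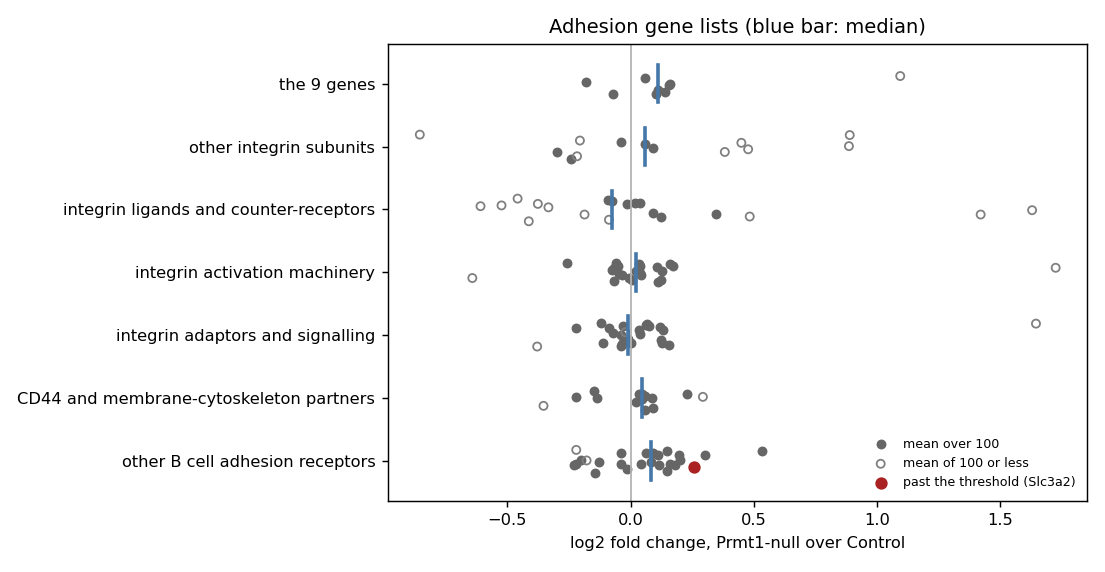
Log2 fold change (Prmt1-null minus Control) of each tested gene in the adhesion gene lists, with the median of each list as a blue bar and genes with a mean of 100 normalised counts or less as open points. Medians lie between −0.08 and 0.11, and Slc3a2 is the 1 called gene among the 119 other adhesion genes and the 9 described in detail.

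The 3 adhesion genes that varied most over the 6 libraries were Itgax (SD 1.96 on the log2 scale), Itgam (0.22) and Itgb7 (0.19). Across all tested genes, the patterns over the 6 libraries closest to Itgam, by mean absolute difference of centred log2 values, were those of Palm (0.033), Sfn (0.041) and Gm10020 (0.044). For Itgb7 they were Gm17201 (0.027), Cplx2 (0.046) and Mical3 (0.047). For Itgax, with its few counts, the nearest were Lrrn4cl (0.23), Ighd4-1 (0.28) and 1810019J16Rik (0.29). With 6 libraries and 18268 genes to search, such likeness is a description of these libraries.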

How the data were processed

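RNA-seq of 6 iGB libraries was used. Per the submitters' processing notes, the authors used Trimmomatic 0.32, STAR 2.3.0e (mm10) and featureCounts 1.4.4 on exons, from stranded, rRNA-depleted libraries. The deposited table holds raw counts, whole numbers without normalization or filter. Of the 39017 genes, 37607 were matched to GENCODE M21 by gene ID, 804 by symbol and 606 not at all. GENCODE M21 gave positions and exon lengths and may differ from the gene models that the authors counted on. Lengths are those of all exons unless the longest transcript is named. The 398 chromosome Y genes were left out.

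Counts were compared with edgeR 4.0.16 in R 4.3.3: filterByExpr (minimum count 10), TMM, and the quasi-likelihood test on 18268 genes with Benjamini-Hochberg adjustment. A gene was called if its adjusted p was under 0.05 and its mean over 100 normalised counts. The standard error was obtained from the fold change and the F statistic. Normalised counts are scaled to a mean effective library size of 55477306. The script was tested on simulated data. A count of 3 in a library, the detection limit, is 0.0478 to 0.0662 CPM; limits cover counting error only, since reads carry no molecular identifiers.

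Groups came from the labels, and the p-values measure the spread between mice. Libraries sharing a number were from separate mice, and the number was no block. The 9 genes and the lists were chosen with earlier results of these data known. Named genes were the 9, Prmt1, in each other adhesion list every called gene or else the smallest p, up to 2 of the highest level per length in each list, and the 3 nearest patterns of the 3 most variable of the 9. Alternatives were DESeq2 1.42.0, limma-voom (limma 3.58.1), DESeq2 size factors, no filter, a replicate block, sex as a covariate, other thresholds, the longest transcript as length, and each library left out. No value of the authors' own comparisons was used.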

Additional observations from a re-analysis of the deposited data

How the results depend on the processing

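None of the 9 adhesion genes was called under any alternative in which calls were counted. Itgam and Cd44 turned direction when 1 library was left out: the range was −0.025 to 0.24 for Itgam, lowest without Prmt1-null 2, and −0.0042 to 0.11 for Cd44, lowest without Control 3. Neither was called in any setting. The other 7 kept their direction in all alternatives.

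The number of genes called, 216, was 720 with DESeq2, 675 without the filter and 87 with a fold change over 1.4, and 31 (without Prmt1-null 2) to 340 (without Control 3) with 1 library left out. It was 128 without Control 1, 59 without Control 2, 51 without Prmt1-null 1 and 77 without Prmt1-null 3. Fewer samples enter those fits; the other causes were not tested. Other integrin subunits had 1 call (Itgb3) with DESeq2, without the filter and with sex as a covariate, and 0 to 1 with 1 library left out. Activation genes had 1 (Sharpin) with DESeq2 and without the filter. CD44 partners had 0 to 1 with 1 library left out, 1 (Hmmr) without Control 3. Other adhesion receptors, with 1 call, had 3 with DESeq2, 2 without the filter, 0 with limma-voom, 0 with sex as a covariate and 0 to 2 with 1 library left out. With the longest transcript as length, Itga4 stood at 1.73 (Control) and 1.57 (Prmt1-null) times its β partners, and the β2 α chains at 1.38 and 1.33 times Itgb2.

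With the replicate number as a block 151 genes were called, and other adhesion receptors had 0 calls. Same-numbered libraries correlated at −0.072, 0.048 and −0.077 in their deviations from the group means, and the mice differ, so the numbers do not pair the samples. Of the Control libraries only Control 2 correlated best with its own number.

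With 3 mice per group, a difference of the size seen for Itga4 or Itgb2 did not pass the adjusted threshold, which does not show that these genes are the same in both genotypes. Itgax had at most 38 counts in a library. RNA was measured, not surface protein, and deletion of Prmt1 in single cells was not measured.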

Other observations

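Of the 25 other B cell adhesion receptors, 7 had a positive and 4 a negative log2 fold change with an unadjusted p under 0.05, beside 13.5% of all genes tested in either direction, and for 10 the groups did not overlap, beside 19.9% of all genes. Of the 6 lists, this one held the most of both, and it is described here with its values known. Genes with a mean over 100 normalised counts were 23 of its 25, beside 13092 of the 18268 tested, so the shares come from unlike sets. Of the 25, only Slc3a2 passed the adjusted threshold with edgeR on all 6 libraries and the filter on low counts, and 3 passed with DESeq2. Alcam, which encodes the CD6 ligand ALCAM and is named here after its values were seen, had a log2 fold change of 0.30 (SE 0.095, edgeR adjusted p = 0.16). This difference did not pass the correction.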
